A study of Homo sapiens with 8 samples.

Results

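The genes described here were the interleukin-1 (IL-1) family cytokines and receptors IL1A, IL1B, IL1RN, IL36G, IL36RN, IL18, IL33, IL1R1, IL1R2 and IL1RAP, 10 of the 25369 gene rows in the RNA-seq table, chosen by name. RNA-seq was performed on MCF10A cells, a spontaneously immortalized, nontransformed human mammary epithelial line, encapsulated for 7 days in 4 hydrogels, each with 2 libraries. The soft IPN was an interpenetrating network of alginate and reconstituted basement membrane (rBM), and the stiff IPN was the same network with its alginate crosslinked by calcium. The soft col:rBM gel held collagen-1 (col-1) and rBM, and the stiff col gel held col-1 without rBM. All groups were the same unmodified line at passages 8 to 15, so replicates came from separate gels and trials but not from separate donors. The comparison of stiff with soft IPN asks how stiffness acts in a basement membrane matrix. Stiffness and added calcium changed together there, so these cannot be told apart. The comparison of stiff col with soft col:rBM changes stiffness together with col-1 and rBM. The difference of stiff from soft within a gel system is called the stiffness effect here, whichever of these made it. Stiff col and stiff IPN differ both in matrix proteins (col-1 or rBM) and in alginate with its calcium, so these cannot be told apart in that comparison.

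IL-1α and IL-1β bind the receptor IL1R1, which recruits IL1RAP and signals through MYD88 and IRAK kinases to NF-κB, while IL1RN encodes a receptor antagonist that occupies IL1R1 without signaling and IL1R2 is a decoy receptor. IL-1α is made as an active precursor and is stored in epithelial cells, where it acts as an alarm signal on damage, as does IL-33. IL-1β and IL-18 precursors must be cleaved, usually by caspase-1, before they signal, so transcript levels do not give the amount of active cytokine.

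Values are normalized counts, which are read counts that had been divided by a factor for each library and rounded. Libraries held 13065018 to 18588896 reads on genes, and 3 reads, taken as the limit of detection, corresponded to 2.41 to 3.73 normalized counts, a limit that covers counting error only. Differences are given on the log2(normalized count + 1) scale, which understates the change of low genes, with the standard error (SE) and the adjusted p of limma (Benjamini-Hochberg over the 13349 genes tested). A gene was called at an adjusted p under 0.05. The paper describes 2 independent trials but does not state that a replicate number names the same trial in every gel. Replicates 1 and 2 were taken here as trials 1 and 2, and limma was also run with the trial as a block. For 1 gene taken alone, the smallest two-sided p of an exact permutation test over 2 and 2 libraries is 0.333. Basal epithelial markers (KRT5, KRT14, KRT17, TP63, ITGA6, ITGB4) were high in every library, at 51415 to 141066 normalized counts in sum. Of the leukocyte list, PTPRC was listed at 0 in all 8 libraries and CD3E at 3 or fewer, while CD68 (324 to 5017 normalized counts), CSF1R (166 to 648) and CD14 (89 to 412) were expressed. Of the fibroblast list, COL1A2 was at 0 throughout, while DCN (526 to 1217) and COL1A1 (168 to 333) were expressed.

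The promoters of IL1A, IL1B and IL1RN are shown because the agonist genes moved together across libraries whereas the antagonist gene did not. RefSeq windows of 300 bases, 250 before and 50 from the annotated start, were found for 9 of the 10 genes (18 windows, GRCh38.p14), and each matched hg19 at a single place, whose positions are given here. They are written 5′ to 3′ on the gene's strand with motif matches in capitals. IL1A and IL1B lie on the minus strand and IL1RN on the plus strand.
IL1A, chr2:113542021-113542320: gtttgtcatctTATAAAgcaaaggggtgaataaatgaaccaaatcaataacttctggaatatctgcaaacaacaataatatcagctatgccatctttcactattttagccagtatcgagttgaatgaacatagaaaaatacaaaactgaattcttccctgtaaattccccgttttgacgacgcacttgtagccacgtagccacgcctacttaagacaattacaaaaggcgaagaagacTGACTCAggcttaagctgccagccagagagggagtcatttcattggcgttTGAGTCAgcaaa
IL1B, chr2:113594307-113594606: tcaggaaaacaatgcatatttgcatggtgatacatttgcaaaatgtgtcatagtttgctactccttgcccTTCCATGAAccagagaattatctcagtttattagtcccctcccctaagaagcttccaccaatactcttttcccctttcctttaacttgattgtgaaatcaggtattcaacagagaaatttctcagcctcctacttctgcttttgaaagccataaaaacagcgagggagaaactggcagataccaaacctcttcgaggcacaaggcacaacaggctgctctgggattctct
IL1RN, upstream start, chr2:113875298-113875597: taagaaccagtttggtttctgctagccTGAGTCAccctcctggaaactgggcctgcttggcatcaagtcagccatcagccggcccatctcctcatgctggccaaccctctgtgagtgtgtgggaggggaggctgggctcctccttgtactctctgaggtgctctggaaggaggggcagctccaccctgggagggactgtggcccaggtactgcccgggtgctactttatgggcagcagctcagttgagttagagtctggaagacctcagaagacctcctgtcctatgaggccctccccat
IL1RN, downstream start, chr2:113884925-113885224: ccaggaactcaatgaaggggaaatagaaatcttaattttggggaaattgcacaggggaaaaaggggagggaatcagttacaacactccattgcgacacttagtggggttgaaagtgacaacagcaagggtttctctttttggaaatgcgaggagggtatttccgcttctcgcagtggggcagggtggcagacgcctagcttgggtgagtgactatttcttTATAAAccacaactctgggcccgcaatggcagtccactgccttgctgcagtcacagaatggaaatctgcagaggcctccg

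The motifs searched were AP-1 (TGANTCA, either strand), STAT (TTCNNNGAA, either strand), the NF-κB consensus (either strand) and TATAAA (gene strand), which 7.71%, 7.66%, 11.3% and 7.33% of all 35116 RefSeq windows held. The IL1A window shown held 2 AP-1 matches, 12 bases before its start and 39 bases after it, and a TATAAA 239 bases before it. From the other annotated IL1A start, which lies downstream, the same AP-1 matches stood 105 and 55 bases before the start. A single AP-1 match stood 223 bases before the upstream IL1RN start, and a TATAAA 30 bases before the downstream one. A further IL1RN window, not shown, held no match. The IL1B window held a STAT match 180 bases before the start. These matches are letters in a window and not measured binding. The upstream start of IL1RN makes intracellular forms of the antagonist and the downstream start the secreted form, and the table, which has 1 row per gene, does not separate them.

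IL1A, IL1B and IL18 were abundant in every gel, and 3 members were at or near the limit of detection. Per kb of the canonical transcript, which allows levels to be compared between genes, the means over 8 libraries were 2814 normalized counts for IL18, 2654 for IL1A and 862 for IL1B. They were 142 for IL1RAP, 106 for IL33, 73.9 for IL1RN and 41.5 for IL1R1. The ranges of IL18 and IL1A overlapped, whereas the lowest IL1A library (1430 per kb) was above the highest IL1B library (1300 per kb). IL1B in turn stayed above IL1RAP in all libraries, and IL1RAP stayed above IL1R1, whereas the ranges of IL33 and IL1RN overlapped each other and those of both. Normalized counts of IL36RN were 0 to 2 and those of IL1R2, the decoy receptor, 0 to 7, so neither could be compared between gels at this depth. IL36G, an IL-36 agonist of barrier epithelia, had 0 to 3 normalized counts in 7 libraries and 37 in stiff IPN replicate 2. These 3 genes did not reach 10 normalized counts in 2 libraries and were not tested, which left 7 of the 10 members.

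**Figure D1:**
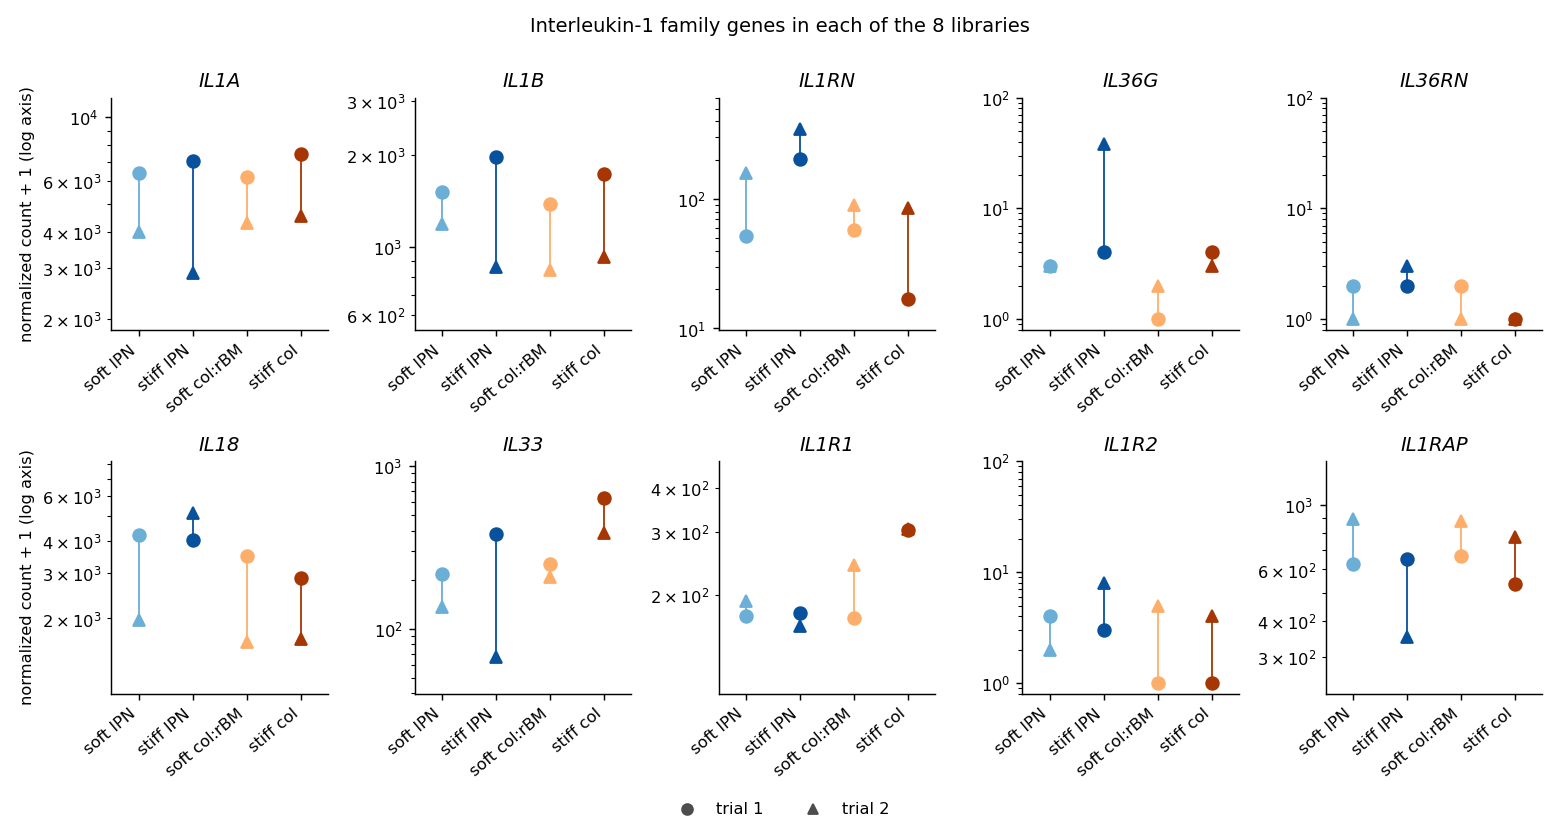
Normalized count + 1 (log axis, scale set per panel) of the 10 genes in each library, by gel (color) with trial 1 as circles and trial 2 as triangles. IL1A and IL1B were lower in trial 2 in all 4 gels and IL1RN was higher, and the stiff IPN held both of the highest IL1RN libraries.

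No member was called between any gels by the fit without the block. No gene of the table was (0.0% of 13349 in stiff IPN vs. soft IPN, stiff col vs. stiff IPN, stiff col vs. soft col:rBM, soft col:rBM vs. soft IPN and the difference of the stiffness effects), while 1245, 838, 140, 190 and 278 genes had an unadjusted p under 0.05 in limma. No second tool was run on these contrasts here. The paper's own DESeq2 test of these libraries did call genes between the IPNs and between stiff col and stiff IPN. In the fit with that block, 3.83%, 2.47%, 0.0%, 0.0% and 0.015% of genes were called in the same order, and 1 member, IL1RN, in stiff col vs. stiff IPN. Members with an unadjusted p under 0.05 without the block were 0 of 7 between the IPNs and 2 of 7 (IL1RN and IL1R1) between stiff col and stiff IPN, where the share of all genes was 6.28%. Libraries of the gels did not overlap for 1 of 7 members between the IPNs and for 4 of 7 between stiff col and stiff IPN, against 41.9% and 30.9% of all genes. The same held for 2 of 7 between stiff col and soft col:rBM (19.0% of all genes) and 0 of 7 between soft col:rBM and soft IPN (20.8%).

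IL1A (chr2:113531502-113542070, minus strand), which encodes the alarm cytokine IL-1α, had no called difference between gels. Normalized counts in trials 1 and 2 (given in this order throughout) were 6391 and 4001 for the soft IPN, 7056 and 2885 for the stiff IPN, 6202 and 4314 for soft col:rBM, and 7440 and 4539 for stiff col. Trial 1 was higher in each gel, and the ranges of all 4 gels overlapped. The log2 difference of stiff from soft IPN was -0.16 (SE 0.47, adjusted p = 0.935), made up of 0.14 in trial 1 and -0.47 in trial 2. Between stiff col and soft col:rBM it was 0.17 (SE 0.47, adjusted p = 1.0), with 0.26 and 0.07 in the trials.

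IL1B (chr2:113587328-113594393, minus strand), the agonist that is cleaved by caspase-1, was also not called. Soft IPNs held 1510 and 1187 normalized counts, stiff IPNs 1959 and 861, soft col:rBM 1377 and 841, and stiff col 1729 and 925. As for IL1A, the stiff IPN libraries enclosed those of the soft IPN, and the trials pointed opposite ways (log2 0.38 in trial 1 and -0.46 in trial 2, fitted -0.04, SE 0.47, adjusted p = 0.984). IL1A exceeded IL1B per kb in 8 of 8 libraries, by 2.50-fold to 3.83-fold. Over the 8 libraries IL1A and IL1B had a Pearson r of 0.874 on the log2 scale, a description over libraries that share gels, trials and depth.

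IL1RN (chr2:113856892-113891593, plus strand), the receptor antagonist, was highest in stiff IPNs. Its normalized counts were 51 and 159 for the soft IPN, 204 and 347 for the stiff IPN, 57 and 89 in soft col:rBM, and 16 and 85 in stiff col. Both stiff IPN libraries lay above all 6 others, and stiff col replicate 1 was the lowest library. Stiff IPNs exceeded soft IPNs by 2.93-fold (log2 1.55, SE 0.83, adjusted p = 0.571 without the block). The trials gave log2 1.98 and 1.12, and with the trial as a block the SE was 0.412 and the adjusted p 0.0742, above the threshold. The paper, which used DESeq2, lists IL1RN among genes regulated alike in stiff IPNs and in patient samples of ductal carcinoma in situ, higher in both. Leaving out 1 library moved the log2 difference from 0.74 (without soft IPN replicate 1) to 2.36 (without soft IPN replicate 2), and with the block it was called without stiff IPN replicate 2 (adjusted p = 0.0467) or stiff col replicate 1 (0.0486).

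Between stiff col and stiff IPN, IL1RN was called with the block. The log2 difference was -2.80, to 0.143-fold of the stiff IPN level (SE 0.412, adjusted p = 0.0198 in limma with the block, and SE 0.828, adjusted p = 0.579 without it), with -3.59 in trial 1 and -2.02 in trial 2. Leaving out 1 library at a time from the fit with the block ended the call without soft IPN replicate 1 (adjusted p = 0.067), soft IPN replicate 2 (0.0686) or stiff col replicate 1 (0.12, log2 -2.14). Without the block the difference ran from -3.97 (without stiff col replicate 2) to -1.64 (without stiff col replicate 1). Over all alternatives the adjusted p ran from 0.005 to 1.0. Between stiff col and soft col:rBM the log2 difference was -0.92 (SE 0.83, adjusted p = 1.0), with -1.77 and -0.07 in the trials.

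The stiffness effect on IL1RN pointed opposite ways in the gel systems, although the collagen side rested mostly on trial 1. Stiff exceeded soft in both trials in IPNs and was below soft in both trials in collagen gels. In collagen gels the log2 difference was -1.77 in trial 1 and only -0.07 in trial 2. Without stiff col replicate 1 it reversed to 0.25. The difference of the effects was -2.47 (log2, SE 1.17, unadjusted p = 0.0708, adjusted p = 1.0 in limma), and with the block its unadjusted p was 0.00281 and its adjusted p 0.25, so it was not called. Across the 4 gels together, where limma's F test with the block called 1.56% of genes, IL1RN had an adjusted p of 0.0535 and no member was called.

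The antagonist transcript relative to the agonist transcripts followed IL1RN. Per kb, IL1RN amounted to 0.718 and 3.37 per 100 of IL1A plus IL1B in soft IPNs in trials 1 and 2, and to 2.50 and 10.2 in stiff IPNs. It was 0.839 and 1.94 in soft col:rBM and 0.194 and 1.74 in stiff col. Trial 2 was higher in each gel, and within a trial the stiff IPN was the highest gel. The ratio in stiff IPNs was 3.48-fold that in soft IPNs in trial 1 and 3.02-fold in trial 2, although soft IPN replicate 2 (3.37) was above stiff IPN replicate 1 (2.50), so the gels overlapped. No test was run on the ratio.

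**Figure D2:**
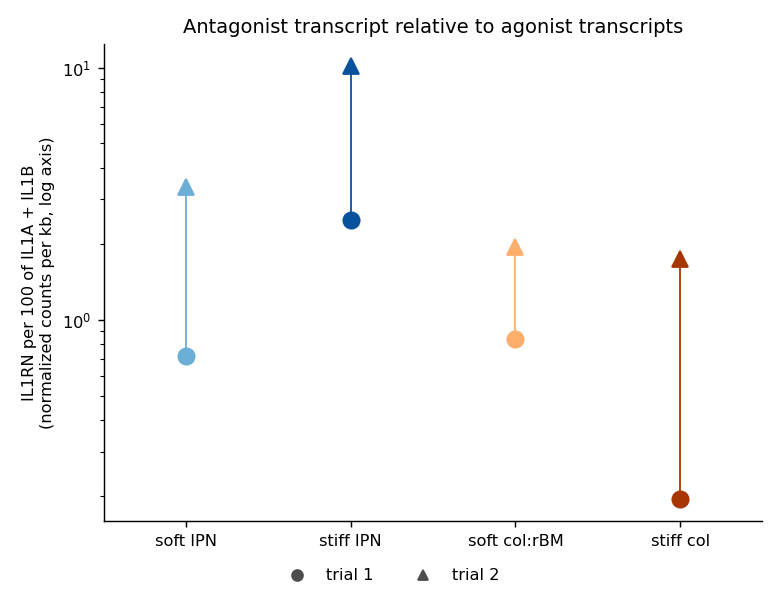
IL1RN per 100 of IL1A plus IL1B (normalized counts per kb of canonical transcript, log axis) in each library, by gel, with trial 1 as circles and trial 2 as triangles. The ratio ran from 0.194 in stiff col to 10.2 in stiff IPNs, and trial 2 was above trial 1 in each gel.

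Squamous differentiation genes mostly moved with IL1RN in the comparisons with the stiff IPN, and were split between the collagen gels. Of the 12 genes of this list 8 were tested, and 0 were called without the block. Between the IPNs 6 were higher in stiff and 2 lower, and in stiff col vs. stiff IPN all 8 were lower. Between stiff col and soft col:rBM, 4 were higher and 4 lower. With the block, 3 were called higher in stiff than in soft IPNs (1.69% of all genes) and 5 lower in stiff col than in stiff IPNs (1.47%), among them the cornified envelope precursor genes SPRR1A (log2 2.97 and -4.25) and IVL (1.91 and -1.70). The summed level of the list was 1473 and 3402 normalized counts for the soft IPN, 3813 and 5111 for the stiff IPN, 1079 and 1871 in soft col:rBM, and 747 and 1807 in stiff col, and LOR, which marks terminal differentiation, was at 0 in all. Other markers moved between the IPNs too, with CD68 (log2 -2.24, adjusted p with the block = 0.0127, and 0.53 without), CSF1R (-1.31, 0.0413 and 0.491) and the basal gene ITGB4 (-1.45, 0.0293 and 0.514) lower in the stiff IPN and the basal gene KRT17 higher (1.88, 0.00671 and 0.568). The part of these markers in the IL1RN difference was not tested. In these bulk libraries, more cells that express IL1RN and more IL1RN RNA per cell cannot be told apart. The genes whose profile over the 8 libraries was most like that of IL1RN were MYO5C (Pearson r = 0.991), FAM213A (0.991) and HES2 (0.983).

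IL36RN, the antagonist of the IL-36 receptor, was at 2 normalized counts or fewer in all libraries, below the limit of detection. IL36G stood at 37 in the library with the most IL1RN.

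IL18 (chr11:112013976-112034819, minus strand), which is cleaved by caspase-1 and acts through its own receptor, was not called between gels. Its normalized counts were 4249 and 1975 for the soft IPN, 4061 and 5158 for the stiff IPN, 3513 and 1617 in soft col:rBM, and 2869 and 1660 in stiff col. Stiff IPN replicate 2 was the highest library, whereas in the other gels the trial 2 library was the lower one. The log2 difference of stiff from soft IPN was 0.66 (SE 0.49, adjusted p = 0.676), with -0.07 in trial 1 and 1.39 in trial 2. That of stiff col from stiff IPN was -1.07 (SE 0.49, adjusted p = 0.788, and 0.133 with the block), and here the libraries did not overlap.

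IL33 (chr9:6215786-6257983, plus strand), a nuclear alarm cytokine that binds IL1RL1 together with IL1RAP, was highest in stiff col. Soft IPNs held 216 and 135 normalized counts, stiff IPNs 380 and 66, soft col:rBM 248 and 207, and stiff col 634 and 388. Both stiff col libraries lay above all 6 others. The log2 difference of stiff col from soft col:rBM was 1.13 (SE 0.73, adjusted p = 1.0), with 1.35 and 0.90 in the trials, and that from stiff IPN was 1.64 (SE 0.73, adjusted p = 0.784, and 0.113 with the block). The latter ran from 0.38 without stiff IPN replicate 2 to 2.89 without stiff IPN replicate 1. Between the IPNs the trials disagreed in sign (0.81 and -1.02).

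IL1R1 (chr2:102681004-102796334, plus strand), the signaling receptor for IL-1α and IL-1β, was highest in stiff col and had the smallest spread between trials there. Normalized counts of 173 and 191 were measured for the soft IPN, 176 and 162 for the stiff IPN, 171 and 241 in soft col:rBM, and 303 and 305 in stiff col. Both stiff col libraries were above all others. Stiff col exceeded stiff IPN by log2 0.84 (SE 0.25, unadjusted p = 0.011, adjusted p = 0.579 in limma, and 0.084 with the block) and soft col:rBM by 0.58 (SE 0.25, adjusted p = 1.0). The stiff and soft IPN libraries overlapped (log2 -0.11, SE 0.25, adjusted p = 0.915). Exons of IL1R1 share 11 bases with an antisense gene, IL1R1-AS1.

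IL1RAP (chr3:190231840-190377539, plus strand), the co-receptor that IL1R1, IL1RL1 and the IL-36 receptor share, had its lowest value in stiff IPN replicate 2. The soft IPN libraries held 624 and 897 normalized counts, those of the stiff IPN 650 and 352, those of soft col:rBM 667 and 883, and those of stiff col 532 and 773. The log2 difference of stiff from soft IPN was -0.64 (SE 0.36, adjusted p = 0.585), with 0.06 in trial 1 and -1.35 in trial 2. Per kb, IL1RAP was above IL1R1 in all libraries. IL1R2 was at 7 normalized counts or fewer.

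**Figure D3:**
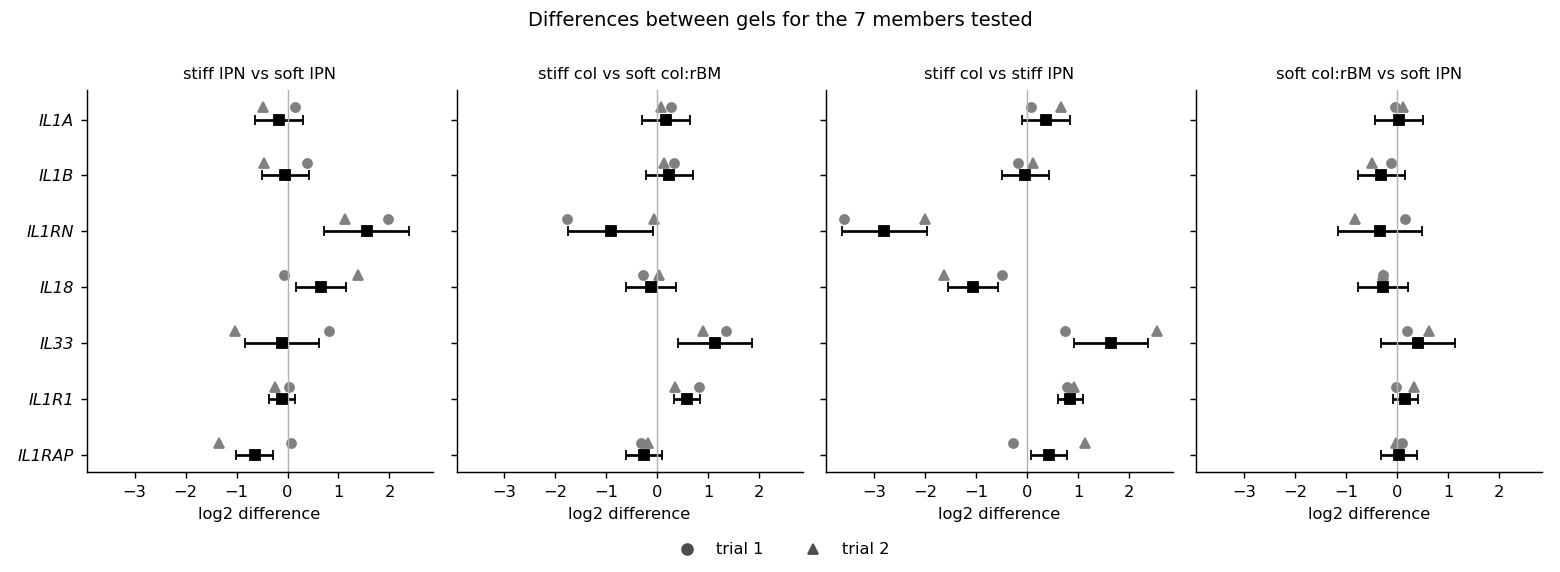
Log2 differences between gels for the 7 members tested. Squares are fitted differences with the SE of the fit without the block, and grey circles and triangles are the differences within trials 1 and 2. IL1RN between stiff col and stiff IPN (-2.80) was the largest difference among these members, and between the IPNs the trials lay on opposite sides of 0 for every member shown except IL1RN.

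Stiff IPN replicate 2 set much of the spread in the IPN comparison. It had the lowest IL1A, IL33, IL1R1 and IL1RAP and the highest IL1RN, IL18 and IL36G of the 8 libraries. It was also the library with the fewest estimated reads (13065018). Leaving out stiff IPN replicate 1 makes replicate 2 the only stiff IPN library. The log2 difference between the IPNs with the block was then 1.33 for IL18 and 1.17 for IL1RN. It was -0.49 for IL1A, -0.31 for IL1B, -1.09 for IL33 and -1.33 for IL1RAP. Without stiff IPN replicate 2 it was 1.93 for IL1RN, 0.88 for IL33, 0.22 for IL1B and 0.16 for IL1A. For IL1R1, IL1RAP and IL18 it was 0.061, 0.042 and -0.015.

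The trials differed in 4 of the 7 members. In limma with gel and trial as factors 27.1% of all genes were called between trials, 12.7% higher and 14.4% lower in trial 2. IL1A was lower in trial 2 (log2 -0.80, SE 0.139, adjusted p = 0.0073) and IL1B likewise (-0.79, SE 0.139, adjusted p = 0.00777), each in 4 of 4 gels. IL33 was also lower (-1.04, adjusted p = 0.0491), in 4 of 4 gels, and its call was lost with no filter on low genes (adjusted p = 0.0568) and in 6 of 8 fits without 1 library (either soft IPN, 0.125 and 0.125, either soft col:rBM, 0.063 and 0.062, or either stiff col, 0.119 and 0.124). IL1RN was higher in trial 2 in 4 of 4 gels (1.34, SE 0.292, adjusted p = 0.0149), and its call was lost without either soft IPN library (0.0796 and 0.0814) or stiff col replicate 2 (0.0543). IL18 (-0.67, adjusted p = 0.0636), IL1R1 (0.13, 0.535) and IL1RAP (0.15, 0.665) were not called. Without a stiff IPN library the IL18 difference was -1.004 (adjusted p = 0.000241 without replicate 1 and 0.000247 without replicate 2), and IL1RAP had 0.49 (0.00355 and 0.0034).

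**Figure D4:**
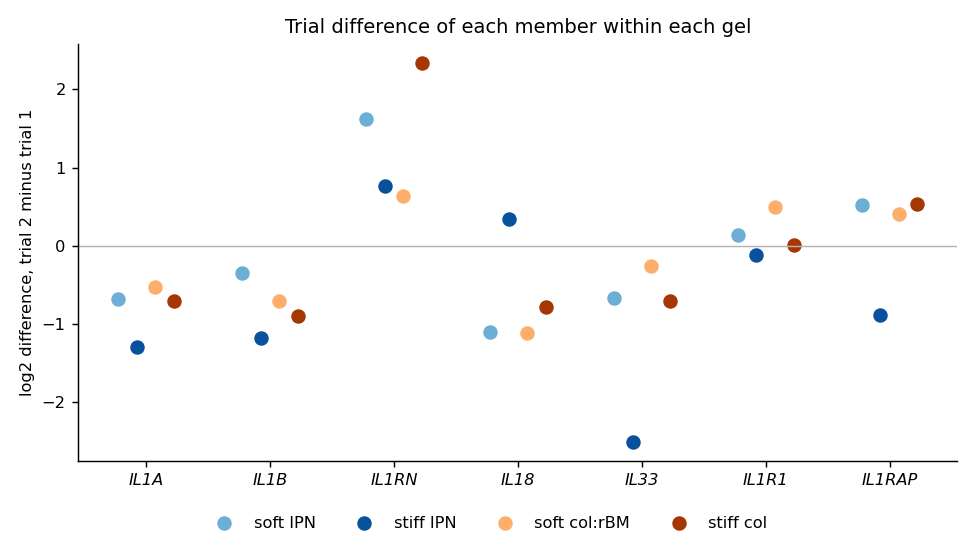
Log2 difference of trial 2 from trial 1 (vertical axis) for the 7 members tested, with 1 point per gel. All 4 points of IL1A, IL1B and IL33 lie below 0 and all 4 of IL1RN above it, while the stiff IPN point of IL18 and of IL1RAP lies on the other side of 0 from the remaining gels.

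Markers of epithelial state also moved with the trial. Of the 6 basal genes 5 were called higher in trial 2, against 12.7% of all genes, among them KRT14 (log2 1.94, adjusted p = 0.00178) and KRT5 (1.35, adjusted p = 0.00168). The remaining 1, ITGB4, was lower (-0.91, adjusted p = 0.00853), as were 14.4% of all genes. Also higher were 4 of 8 squamous genes tested, against the same 12.7% of all genes, among them IVL (1.57, adjusted p = 0.00481). CD68, which many cell types other than macrophages express, was lower (-1.74, adjusted p = 0.0018), as was CD14 (-1.17, adjusted p = 0.00467). The summed level of the leukocyte list ran from 1812 to 5827 normalized counts in trial 1 and from 756 to 2667 in trial 2. Their part in the trial differences of the IL-1 genes was not tested.

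The other IL-1 family genes were mostly at or near the limit of detection. Of 12 further ligands and receptors, 5 were tested and 7 (IL36A, IL36B, IL37, IL1F10, IL1RL2, IL18RAP and IL1RAPL1) had at most 7 normalized counts in any library. None of the 5 was called between gels, and their median log2 difference of stiff from soft IPN was 0.28, against -0.01 over all genes tested. IL1RL1, the receptor for IL-33, stood at 462 and 70 normalized counts for the soft IPN, 324 and 148 for the stiff IPN, 607 and 60 for soft col:rBM, and 2241 and 139 for stiff col. Each trial 1 library was above each trial 2 library, and IL1RL1 was lower in trial 2 (log2 -2.79, SE 0.392, adjusted p = 0.00437). SIGIRR, an inhibitory receptor of the family (-1.37, adjusted p = 0.016), and IL1RAPL2 (-2.03, adjusted p = 0.0111) were lower too. IL18R1, a subunit of the IL-18 receptor, held 34 to 85 normalized counts and IL18BP, the soluble IL-18 inhibitor, 8 to 30, with no call between gels or trials.

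The signaling chain below the receptor mostly passed the filter for testing, which by itself does not show expression in every gel. Of its 30 genes, from MYD88 and the IRAKs to NF-κB and its inhibitors, 29 were tested. None was called between gels without the block. With the block 1 of 29 was called between the IPNs, where 3.83% of all genes were, so the list was near that share. The gene was NFKBIZ, an inducible nuclear IκB protein that IL-1 receptor signaling is known to raise. NFKBIZ stood at 314 and 240 normalized counts for the soft IPN, 625 and 598 for the stiff IPN, 329 and 252 for soft col:rBM, and 651 and 473 for stiff col, so both stiff gels were above both soft gels without overlap. It was higher in stiff than in soft IPNs by log2 1.15 (SE 0.256, adjusted p = 0.488, and 0.0245 with the block), and the difference of stiff col from soft col:rBM was 0.94 (adjusted p = 1.0, and 0.358 with the block). The next lowest unadjusted p values between the IPNs were those of TAB1 (-0.50), IKBKB (0.43) and RELA (-0.37), with adjusted p values with the block of 0.126, 0.113 and 0.21. The median of the list was 0.18 between the IPNs and 0.13 between the collagen gels. Between trials 4 of 29 were called, IRAK2 (-0.50) and TAB2 (-0.51) lower and NFKB1 (0.73) and TNFAIP3 (0.45) higher in trial 2, a smaller share than that of all genes (27.1%).

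Genes for the cleavage of IL-1 precursors were not called between gels. Of 22 inflammasome and processing genes 17 were tested, with a median log2 difference between the IPNs of -0.10 and 0 called with or without the block, while 1 had an unadjusted p under 0.05 on each side. These were CARD16, a decoy of caspase-1 (1.04, block adjusted p = 0.0898), and CAPNS1, a calpain subunit (-0.53, 0.108), calpain being an enzyme that cleaves the IL-1α precursor. CASP1, which encodes caspase-1, stood at 298 and 350 normalized counts for the soft IPN, 508 and 597 for the stiff IPN, 188 and 391 in soft col:rBM, and 236 and 395 in stiff col. The stiff IPN libraries were the highest, and the difference from soft IPNs was 0.77 (SE 0.39, adjusted p = 0.566, and 0.0989 with the block). CTSS, a cysteine protease, differed by 0.96 (block adjusted p = 0.115). Between trials CASP1 was higher in trial 2 (0.56, adjusted p = 0.0373) and SERPINB1, an inhibitor of neutrophil proteases, lower (-1.01, adjusted p = 0.00213), and S100A13, which takes part in IL-1α release, was lower (-0.46, adjusted p = 0.0421).

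Genes that IL-1 is known to induce were mostly higher in stiff than in soft gels, and part of them passed the test in the IPNs once the trial was a block. Many of them also respond to other signals that reach NF-κB. This list, like the others here, was chosen with earlier results of these data known. Its shares beside those of all genes therefore describe the list and are not an independent test. Of 30 such genes 23 were tested, and the other 7 included IL6 and CCL2, which had at most 1 normalized count. Without the block 0 were called, and 11 of 23 had an unadjusted p under 0.05 and were higher in stiff than in soft IPNs, against 4.81% of all genes, with 3 lower. The median log2 difference was 0.92 between the IPNs and 1.07 between the collagen gels, against -0.006 and -0.004 over all genes. In the collagen gels 13 of 23 had an unadjusted p under 0.05 and were higher in stiff col, against 0.614% of all genes, and 20 of 23 were higher in stiff in both trials, against 30.8% of all genes. Between the IPNs 16 of 23 were higher in both trials, against 31.2% of all genes.

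In the fit with the block, 10 of the 23 response genes were called higher in stiff IPNs, against 1.69% of all genes, and 1 lower. LCN2, an iron-binding antimicrobial protein, stood at 26 and 20 normalized counts for the soft IPN, 258 and 441 for the stiff IPN, 9 and 8 in soft col:rBM, and 18 and 23 in stiff col. Both stiff IPN libraries stood far above all others, 14.2-fold over soft IPNs (log2 3.83, SE 0.41, adjusted p = 0.00671 in limma with the block and 0.243 without). LIF, a cytokine that signals through STAT3, stood at 65 and 41 for the soft IPN and 185 and 488 for the stiff IPN (log2 2.52, adjusted p with the block = 0.0327). CXCL2, a neutrophil chemokine (1.95, 0.0374), and CFB, complement factor B (1.21, 0.0327), were the other genes with the lowest unadjusted p. The others called were CXCL1, CXCL8, SAA1, SAA2, BIRC3 and ZC3H12A, named after their values were seen, of which SAA1 and SAA2 are near-identical copies whose reads could not be fully separated. The gene called lower, also named after its values were seen, was MMP1, a collagenase (-2.63, adjusted p with the block = 0.0393). The counts depended on the soft IPN libraries. Without soft IPN replicate 2, 0 response genes and 0 of all genes were called in either direction. Without soft IPN replicate 1, 4 response genes were called higher and 241 of all genes were called in either direction, and without any other library these counts were 8 to 14 and 253 to 2686, against 511 of all genes with all libraries.

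In stiff col vs. stiff IPN, 6 of the 23 were called lower with the block, among them LCN2, LIF and CFB, against 1.47% of all genes, and 0 higher. Without the block 9 had an unadjusted p under 0.05 and were lower, against 3.69% of all genes, and the median was -0.41. LCN2 differed by log2 -3.99 (adjusted p with the block = 0.0054) and LIF by -2.25 (0.0448). The number called lower was 2 without soft IPN replicate 1, soft IPN replicate 2, stiff IPN replicate 2, stiff col replicate 1 or stiff col replicate 2, where 36 to 725 of all genes were called in either direction, and 7 to 10 without the others, where 288 to 2212 were. This comparison and that between the IPNs share the stiff IPN libraries. Between trials 3 of 23 response genes were called higher in trial 2 and 4 lower, near the shares of all genes (12.7% and 14.4%), with a median of -0.07.

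**Figure D5:**
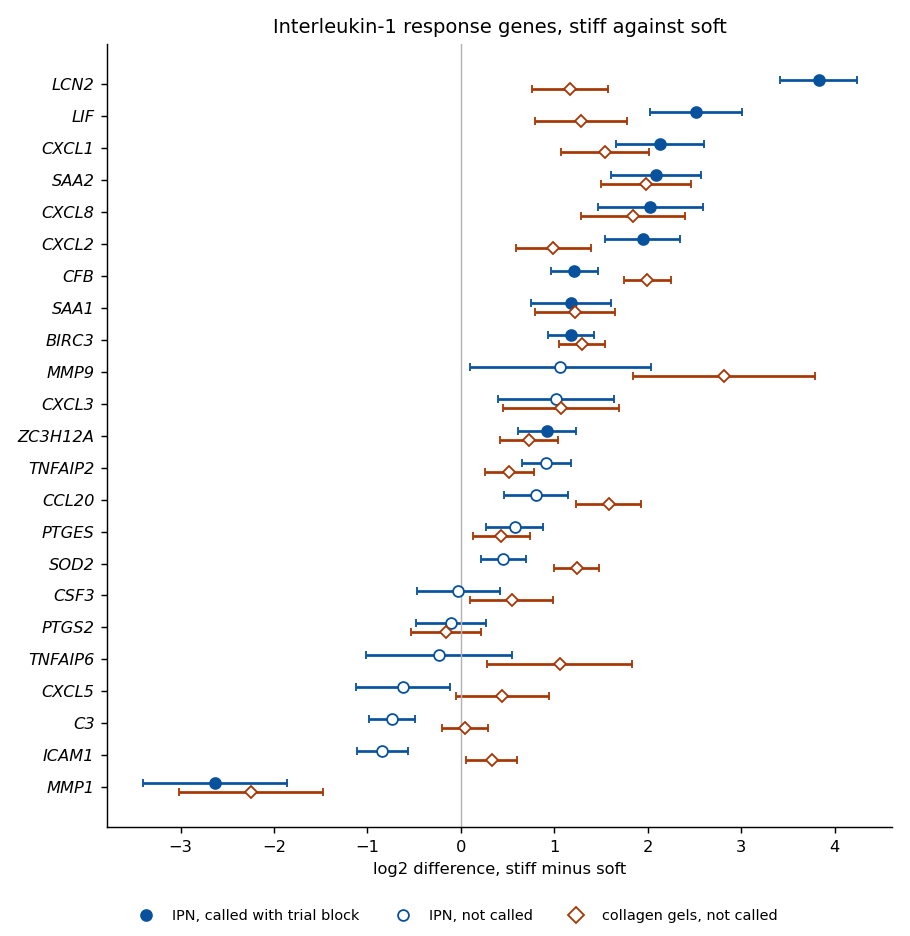
Log2 difference of stiff from soft gels (horizontal axis, bars are the SE of the fit without the block) for the 23 IL-1 response genes tested, in IPNs (circles, filled where the block fit called the gene) and collagen gels (diamonds). Most genes lie right of 0 in both systems, MMP1 lies left of 0 in both, and LCN2 has the largest difference in IPNs at 3.83.

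The genes whose log2 profile was most like that of IL1A over the 8 libraries were DENND4C (Pearson r = 0.993), FAM131B (0.978) and RBL2 (0.978), and those most like IL1B were SRI (0.958), NRP2 (0.957) and STAC (0.953). These are the highest values among all genes tested, over libraries that share trial and gel. IL1A and IL33 had r = 0.832, and IL1RN had r = -0.684 with IL1A and -0.721 with IL33.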

How the data were processed

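RNA-seq was measured in MCF10A cells in 4 hydrogels, with 2 libraries each. Reads had been trimmed and aligned to hg19 by the authors, who dropped unmapped, multimapped and low quality alignments before counting reads per gene with HTSeq. The paper names Bowtie2 as aligner and the submitters' processing notes name TopHat2 2.0.13, and the annotation and strand setting are not given in the sources used here. The deposited values are a signal, read counts that the authors divided by 1 factor per library and rounded, called normalized counts here. Reads were estimated from factors (0.8037 to 1.2417) read from gaps and doublings in the whole numbers. Of 25369 gene rows, 28 had been turned into dates and were left out.

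Genes with at least 10 normalized counts in at least 2 libraries were tested (13349). Limma 3.58.1 was fitted to log2(normalized count + 1) (R 4.3.3, statmod 1.5.0), with 1 mean per gel, a variance trend and robust moderation. Count tests with edgeR or DESeq2 had been planned but were not run, because whole reads could not be recovered from the rounded values. Limma was checked on simulated data. The pairing of libraries by replicate number was checked: the paper describes independent trials, and differences between replicates 2 and 1 correlated across genes in all 6 pairs of gels (r 0.278 to 0.819). The lowest r was that of soft IPN with stiff IPN, and stiff IPN with stiff col had 0.399. In these comparisons the block added the most calls. Positions and canonical transcript lengths are from GENCODE lifted to hg19, and promoters are from RefSeq. Python 3.11.15 with pandas 2.3.3 and matplotlib 3.10.9 was used.

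The members and gene lists were chosen with earlier results of these data known. Named genes were all members, the called genes of each list or, where none or over 4 were called, the 4 with the lowest unadjusted p between the IPNs, and the 3 genes most correlated with IL1A, IL1B and IL1RN.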

Additional observations from a re-analysis of the deposited data

Results flagged for a closer look

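IL1RN was the member whose stiffness effect pointed opposite ways in both trials of the IPNs (higher in stiff, 51 to 204 and 159 to 347 normalized counts) and both trials of the collagen gels (lower in stiff, 57 to 16 and 89 to 85). The collagen difference was small in trial 2, and it reversed without stiff col replicate 1 (log2 0.25). The collagen effect less the IPN effect was -2.47 on the log2 scale (SE 1.17). Limma's test of this difference gave an adjusted p of 1.0, and 0.25 with the trial as a block, so the effects are not shown to differ. Gels have 2 libraries each, so no library could be tested as an outlier.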

How the results depend on the processing

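Without the block, pseudocounts of 0.5 and 5, no filter, median-of-ratios or TMM rescaling and fitting only the gels compared called 0 members between gels, and genes were called only with pseudocount 5 (4 in stiff col vs. stiff IPN), with only the gels compared (2 between the IPNs) and without stiff col replicate 2 (5 in stiff col vs. stiff IPN). The fits of edgeR and DESeq2 were not run, because whole reads could not be recovered. With the replicate block the genes called were 511 between the IPNs, 330 in stiff col vs. stiff IPN, 2 for the difference of the stiffness effects and 208 among the 4 gels, and the members called were 1 in stiff col vs. stiff IPN (IL1RN) and 0 elsewhere. The fits that join the block with another choice, and the leave-one-out fits with the block, were chosen after seeing the data. Block with median-of-ratios rescaling gave 516, 329, 2 and 208 genes and the same 1 member, and block with pseudocount 5 gave 540, 360, 2 and 234 genes, with 1 member in stiff col vs. stiff IPN and 1 among the 4 gels. Leaving out 1 library, with or without the block, moved the genes called from 0 to 2686 between the IPNs, 0 to 2212 in stiff col vs. stiff IPN, 0 to 30 in stiff col vs. soft col:rBM, 0 to 21 in soft col:rBM vs. soft IPN, 0 to 670 for the difference of the effects, 0 to 2028 among the 4 gels and 1211 to 5830 between trials. Members called ran from 0 to 4, 0 to 6, 0 to 1, 0 (no change), 0 to 3, 0 to 5 and 2 to 6 in the same order. The highest counts of genes and members came without stiff IPN replicate 1, apart from 30 genes and 1 member in stiff col vs. soft col:rBM, which came without stiff IPN replicate 2, and 21 genes, called without either stiff IPN library, as were 6 members between trials. Of 42 member differences, 25 reversed in at least 1 fit without 1 library, 60 times in all. None of these had been called in the fit without the block, which called no member between gels. Between the IPNs the log2 difference without 1 library ran from -0.81 to 0.48 (IL1A), -0.64 to 0.55 (IL1B), -0.015 to 1.33 (IL18), -1.36 to 1.15 (IL33), -0.27 to 0.061 (IL1R1) and -1.33 to 0.042 (IL1RAP). In stiff col vs. stiff IPN it ran from -0.28 to 1.01 (IL1A), -0.63 to 0.55 (IL1B) and -0.26 to 1.11 (IL1RAP). In stiff col vs. soft col:rBM it ran from -0.19 to 0.52 (IL1A), -0.22 to 0.68 (IL1B), -2.09 to 0.25 (IL1RN), -0.69 to 0.43 (IL18) and -0.53 to 0.01 (IL1RAP). In soft col:rBM vs. soft IPN it ran from -0.305 to 0.37 (IL1A), -0.67 to 0.041 (IL1B), -1.15 to 0.47 (IL1RN), -0.84 to 0.28 (IL18), -0.11 to 0.92 (IL33), -0.088 to 0.41 (IL1R1) and -0.225 to 0.30 (IL1RAP). For the difference of the effects it ran from -0.31 to 0.98 (IL1A), -0.32 to 0.87 (IL1B), -0.022 to 2.48 (IL33) and -0.30 to 1.07 (IL1RAP). The causes were not tested. A gel left with 1 library was assumed to vary like the others. Depth left IL36G, IL36RN and IL1R2 untested.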
